A study of Mus musculus with 20 samples.

Results

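Ogt, Oga and Eif3a encode the enzyme that adds O-GlcNAc to proteins, the enzyme that removes it, and a subunit of a translation initiation factor on which the series title places the modification. They were chosen as genes, by transcript identifier, and 3 of 4 identifiers given were listed: ENSMUST00000044475 for Ogt, ENSMUST00000026243 for Oga and ENSMUST00000025955 for Eif3a. These are 3 of 15354 transcripts listed in at least 1 library. The fourth identifier, a second Ogt transcript, was not listed in any library. Ribosome-protected RNA fragments (footprints) were measured in mouse embryonic fibroblasts of strain C57BL/6J in 20 libraries. Ribo-seq, which samples footprints of all ribosomes, gave 12 libraries, 2 per group in 6 groups. A further 8 libraries hold footprints of the 80S ribosomes that eIF3 was bound to, an assay called eIF3-80S-seq here.

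The 6 groups combine 3 backgrounds with 2 states. Control cells received no agent. Knockout cells received 0.5 µM 4-OHT for 24 h and then fresh medium for 24 h, the treatment that the labels give for knocking out Ogt. Thiamet-G cells received 0.1 µM of Thiamet-G, an inhibitor of the enzyme that Oga encodes, for 16 h. Fed cells were kept in DMEM with fetal bovine serum, and starved cells were deprived of amino acids for 2 h in DMEM with "DFBS", which the labels do not explain. In eIF3-80S-seq the fed and starved control groups had 2 libraries each and the other 4 groups 1 each. 4-OHT and the medium change were given only for the knockout, so knockout and treatment cannot be told apart. The labels do not say which exons were deleted, whether the fibroblasts are 1 line, or whether replicates are separate cultures. The spread that the p-values rest on is that between libraries, and it may be technical. In bulk libraries, fewer cells with a transcript and less of it per cell cannot be told apart. Fibroblast markers were not checked, since no table used here pairs the other identifiers with gene names.

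O-GlcNAc is a single sugar that O-GlcNAc transferase, the product of Ogt, places on serine and threonine residues of proteins in the nucleus and cytoplasm. O-GlcNAcase, the product of Oga, takes it off again, and cells are known to adjust the amounts of both enzymes when the modification is raised or lowered. eIF3a is the large scaffold subunit of eIF3, the initiation factor that binds the small ribosomal subunit, helps recruit mRNA to it and can remain on ribosomes that have begun to elongate. Footprints show where ribosomes sit on a transcript. They do not measure the proteins or the modification.

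The files give RPKM, reads scaled to the length of the coding sequence and to the library's total, so that levels of different genes can be set side by side. Coding lengths recovered from the values were 3141 nt for Ogt, 2751 nt for Oga and 4035 nt for Eif3a. They correspond to proteins of 1046, 916 and 1344 residues. In the RefSeq annotation of GRCm38.p6, Ogt lies on the plus strand of chromosome X from 101640011 to 101684351. Oga lies on the minus strand of chromosome 19 from 45750255 to 45783644, and Eif3a on the minus strand of the same chromosome from 60761116 to 60790693.

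The sequences around the annotated transcription starts are shown because amino acid starvation is known to hold back translation of mRNAs that begin with a C followed by a run of pyrimidines, the TOP motif. RefSeq lists 2 starts for Ogt and 1 each for Oga and Eif3a. Each window holds 15 bases before the start in lower case and the first 15 transcribed bases in capitals, 5′ to 3′ on the gene's strand. The windows are chrX:101640036-101640065 and chrX:101640203-101640232 (plus strand) for Ogt, chr19:45783539-45783568 (minus strand) for Oga and chr19:60790679-60790708 (minus strand) for Eif3a.
Ogt, first start: attataacagaaagtAGTTCCGGCTTGTGT
Ogt, second start: ttctgctacttctagAACCATTCTTGTCAG
Oga: gagccggtctgtagcGCAGGCGCAGTGCGG
Eif3a: cggggctcgggcggcGGCGCTGCCGCCGCG
None of the 4 starts is a C. A C followed by at least 4 pyrimidines begins 2.51% of the 32851 annotated starts. In the 300-base windows from 250 bases before to 50 after each start, the motif TGATGNAA, the letters of the element bound by ATF4 in the stress response, matched on neither strand of the 3 genes and in 3.97% of all windows. CACGTG, which reads the same on both strands and is bound by basic helix-loop-helix factors, matched once, in Eif3a with its first base at position 23 of the transcript, and in 7.15% of all windows. These matches describe the letters only.

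Depth differed between the assays. Ribo-seq libraries held 844403 to 5846130 reads and eIF3-80S libraries 52148 to 359282. In 6 Ribo-seq libraries, 1 of each group, transcripts were listed from 1 read. The other 6 and all eIF3-80S libraries are called listed from 5 reads, since at most 0.08% of their values lay below that number. Replicate numbers in the file names follow these sets in all 6 groups, and those in the titles in all but starved Thiamet-G cells. Both sets of Ribo-seq libraries therefore allow every comparison within a set, and the values by set are given below. Intervals on single levels are exact 95% Poisson intervals, which cover counting error only. The reads carry no molecular identifiers, so copies of the same fragment cannot be told apart and the intervals may be too narrow. All tests are from limma on log2(rescaled RPKM + 1), two-sided, with p-values adjusted over all transcripts tested and a threshold of 0.05. Fold changes on this scale understate the change of low transcripts.

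Ogt, the targeted gene, was the lowest of the 3 in every library. In Ribo-seq its level was 5.04 and 14.1 RPKM in fed control cells and 15.0 and 5.50 RPKM in starved control cells (replicates 1 and 2). In knockout cells it was 3.09 and 7.55 RPKM fed and 10.1 and 0.754 RPKM starved. In Thiamet-G cells it was 2.51 and 10.4 RPKM fed and 19.4 and 16.6 RPKM starved. Footprints on Ogt were thus still listed in all 4 knockout libraries, and the knockout libraries, at 0.754 to 10.1 RPKM, overlapped the control libraries at 5.04 to 15.0 RPKM. The lowest value rests on 2 reads and has an interval of 0.0913 to 2.72 RPKM. The others rest on 26 to 276 reads.

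Set against the control library of the same state and set, Ogt was lower in the knockout in 4 of 4 pairs, with log2 differences from -1.85 to -0.64. The share of all transcripts with as many pairs on the same side was not counted. This holds for every count of pairs given here, so none is read as a difference. The limma difference averaged over fed and starved cells was -1.03 (SE 0.74), with an interval of -2.63 to 0.58. It did not pass (limma, adjusted p = 1). Without starved knockout replicate 2, the library with 2 reads, it was -0.40, and without starved knockout replicate 1 it was -1.65. No transcript of 10936 passed in this contrast (0% called higher and 0% called lower), and 2.93% had an unadjusted p under 0.05. Limma-voom on the recovered reads also called none. The deleted part of Ogt is not given in the sources used here, and the reads are summed over the whole coding sequence, so footprints outside a deleted part would be counted with the rest.

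**Figure D1:**
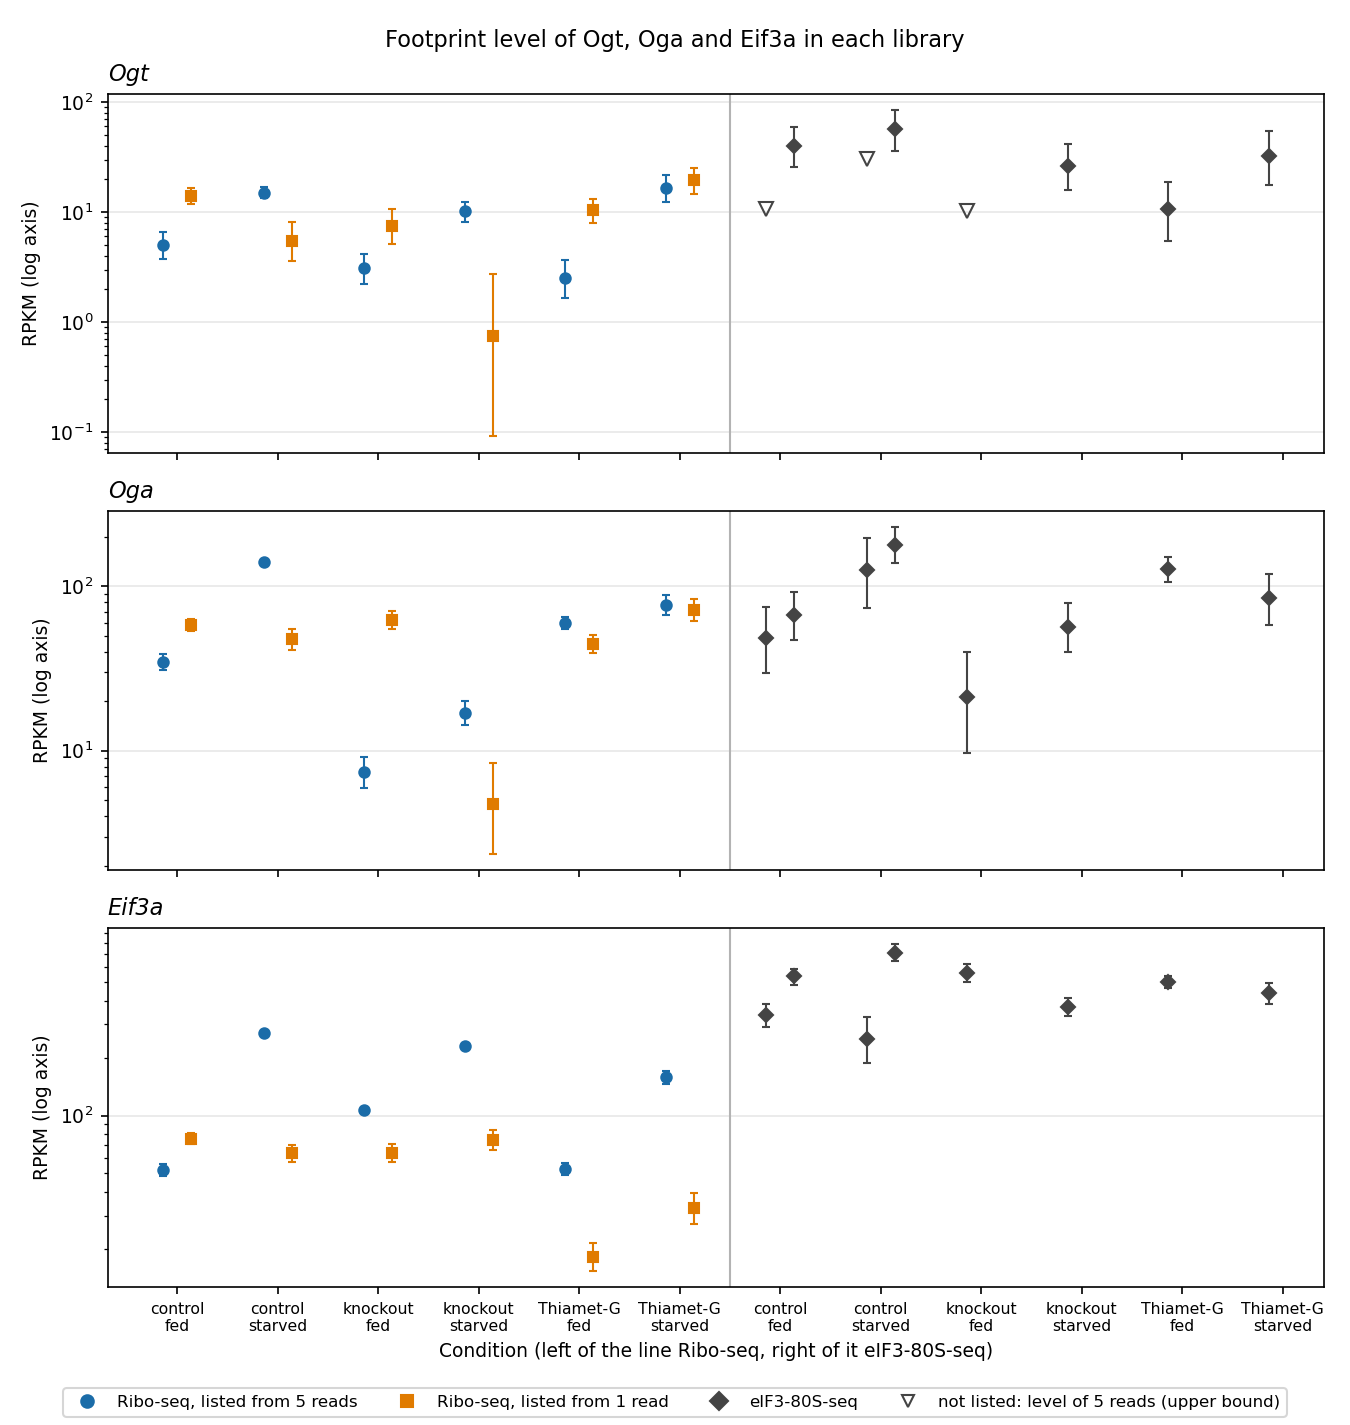
Footprint level (RPKM, log axis) of Ogt, Oga and Eif3a in each of 20 libraries, by background and state, with exact 95% Poisson intervals; blue circles and orange squares are the sets of Ribo-seq libraries listed from 5 reads and from 1 read, grey diamonds are eIF3-80S libraries, and open triangles mark the level of 5 reads where Ogt was not listed. Ogt in knockout overlaps control, Oga is low in 3 of 4 Ribo-seq knockout libraries, and Eif3a is high in all eIF3-80S libraries (252 to 711 RPKM).

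Oga showed the widest separation of the knockout from the other backgrounds. Its Ribo-seq level was 34.6 and 58.3 RPKM in fed control cells and 139.9 and 47.6 RPKM in starved control cells. In knockout cells it was 7.39 and 62.7 RPKM fed and 17.0 and 4.74 RPKM starved. Of the knockout libraries, 3 lay below all control and Thiamet-G libraries, whose lowest was 34.6 RPKM. The exception was fed knockout replicate 2, at 62.7 RPKM on 233 reads (interval 54.9 to 71.3 RPKM). The 3 low libraries had 88, 137 and 11 reads on Oga.

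Within sets, Oga was lower in the knockout in 3 of 4 pairs. The log2 differences were -2.32 fed and -3.08 starved among libraries listed from 5 reads, and 0.05 fed and -3.05 starved among those listed from 1 read. The limma difference averaged over both states was -2.10 (SE 0.65, interval -3.50 to -0.69), a level 4.28-fold lower on that scale. It did not pass after adjustment (limma, adjusted p = 1), in a contrast in which no transcript did. Ordered by p-value, Oga stood at place 33 of 10936. In starved cells alone the difference was -3.06 (SE 0.92, limma adjusted p = 1), at place 7 of 10936. No transcript passed there either, and 1.34% had an unadjusted p under 0.05. In fed cells it was -1.13 (SE 0.92), again with no transcript past the threshold and 3.67% at an unadjusted p under 0.05. The fed and starved differences did not differ beyond the spread (limma interaction -1.93, SE 1.30, adjusted p = 1, with 0% called and 1.98% at an unadjusted p under 0.05).

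The averaged Oga difference depended on which fed knockout library was kept. Without fed knockout replicate 2 it was -2.85. Without fed knockout replicate 1 it was -1.35, the smallest size with any 1 library left out. Which of these libraries departs from the group cannot be told from 2. The processing set as a block gave an adjusted p of 0.831, and limma-voom with that block gave a difference of -2.23 and an adjusted p of 0.222. Across 8373 transcripts, the log2 levels of fed knockout replicate 2 correlated with the other 5 libraries of its set at 0.825 to 0.874. The correlation was 0.874 with both the fed and the starved control library and 0.862 with the starved knockout library. Depth was not matched, at 3030545 reads in that fed control library and 844403 in that starved knockout library. These correlations therefore do not tell which background the library is most like. The Ogt level of fed knockout replicate 2, 7.55 RPKM, lay below that of its fed control partner at 14.1 RPKM. It lay above fed control replicate 1 at 5.04 RPKM and above starved control replicate 2, of its own set, at 5.50 RPKM. The Ogt level therefore does not tell the background of this library either.

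**Figure D2:**
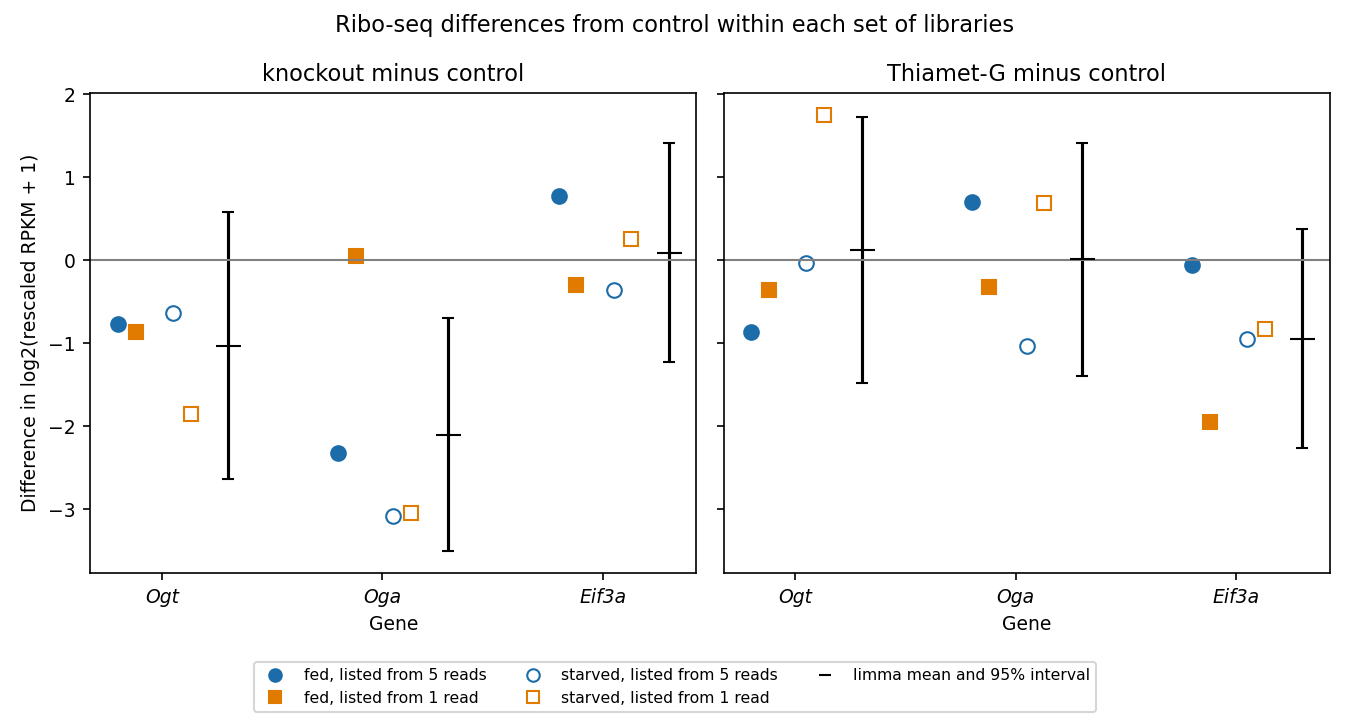
Differences in log2(rescaled RPKM + 1) from the control library of the same state and set, in Ribo-seq, for the knockout (left) and Thiamet-G (right); filled symbols are fed, open symbols starved, and black bars are the limma means over both states with 95% intervals. In the knockout, 4 of 4 Ogt pairs and 3 of 4 Oga pairs lie below 0, and under Thiamet-G 4 of 4 Eif3a pairs do, 1 of which (-0.06) is above control without rescaling. The share of all transcripts with such counts of pairs was not counted.

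Eif3a, by contrast, kept no direction in the knockout. Its Ribo-seq level was 52.0 and 75.9 RPKM in fed control cells and 272 and 63.7 RPKM in starved control cells. It was 107 and 63.9 RPKM in fed knockout cells and 231 and 74.8 RPKM in starved knockout cells, within the range of the control libraries. Of 4 pairs, 2 were higher and 2 lower, from -0.36 to 0.77. The averaged limma difference was 0.10 (SE 0.61, interval -1.22 to 1.41, adjusted p = 1).

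The ratio of Eif3a to Oga within a library needs no scaling between libraries. It was 1.30 to 1.94 in the 4 control libraries and 0.408 to 2.07 in the 4 Thiamet-G libraries. In the knockout it was 14.4 and 1.02 in fed cells and 13.6 and 15.8 in starved cells. In 3 knockout libraries the ratio was therefore several times that of any other Ribo-seq library, and fed knockout replicate 2 lay among the control and Thiamet-G values. These 3 are the libraries with low Oga levels, so the ratio is not independent of the Oga levels above. The share of transcripts, or of ratios between them, that set these libraries apart likewise was not counted. The ratio of Oga to Ogt did not separate the backgrounds. It was 4.14 to 9.31 in control, 1.68 to 8.31 in knockout and 3.71 to 24.1 in Thiamet-G libraries.

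**Figure D3:**
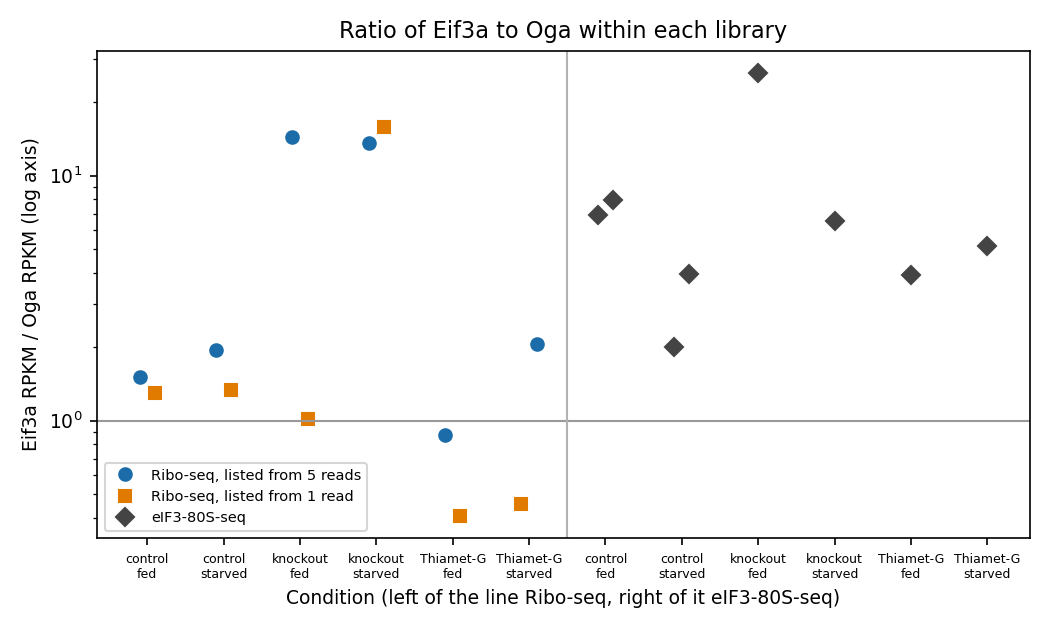
Ratio of the Eif3a level to the Oga level (log axis) within each library, by background and state, with Ribo-seq left of the vertical line and eIF3-80S-seq right of it. In Ribo-seq, the 3 knockout libraries with low Oga levels lie at 13.6 to 15.8 and all other libraries at 0.408 to 2.07. In eIF3-80S-seq the fed knockout library is at 26.3, with 9 reads on Oga. The starved knockout library is at 6.53, below both fed control libraries (6.89 and 7.94).

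Thiamet-G acts on the enzyme that Oga encodes, and its cells were set against the same control libraries. The modification was not measured in these libraries, so Thiamet-G and knockout are not known to have moved it in opposite directions. Oga levels in Thiamet-G cells were 60.3 and 44.9 RPKM fed and 71.9 and 77.0 RPKM starved, inside the control range of 34.6 to 139.9 RPKM. The averaged limma difference from control was 0.01 (SE 0.65, interval -1.39 to 1.42, adjusted p = 1). For Ogt it was 0.13 (SE 0.74, interval -1.48 to 1.73, limma adjusted p = 1). On the levels as deposited 2 of 4 Ogt pairs were lower and 2 higher, and after rescaling 3 were lower, since the starved pair listed from 5 reads (16.6 RPKM against 15.0 RPKM in control) then differed by -0.03. Neither interval excludes a change of more than 2-fold in either direction.

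Eif3a was lower under Thiamet-G than in control cells in 3 of 4 pairs on the levels as deposited, and in 4 of 4 after rescaling between libraries. Its levels were 52.9 and 18.3 RPKM in fed and 32.8 and 159 RPKM in starved Thiamet-G cells. The pair whose sign turned was the fed one listed from 5 reads, at 52.9 RPKM against 52.0 RPKM in control. The rescaled log2 differences ran from -1.94 to -0.06, and the ranges of both backgrounds overlapped. The averaged limma difference of -0.94 (SE 0.61, interval -2.26 to 0.37) did not pass (adjusted p = 1). It was -0.41 without starved control replicate 1, -0.45 without starved Thiamet-G replicate 1 and -0.58 without fed Thiamet-G replicate 2. It was -1.46 without starved control replicate 2 and -1.43 without starved Thiamet-G replicate 2. No transcript passed in this contrast (0% called in either direction by limma, none by limma-voom), and 1.81% had an unadjusted p under 0.05.

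Set directly against Thiamet-G, the knockout had a limma difference of -2.11 for Oga (SE 0.65, adjusted p = 0.444). The Ogt difference was -1.15 (SE 0.74, limma adjusted p = 0.683) and that of Eif3a was 1.04 (SE 0.61, limma adjusted p = 0.663). None passed, as did no other transcript (0% called in either direction, 8.6% at an unadjusted p under 0.05). This contrast and the previous ones share libraries, so the Oga values are not independent of each other.

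The starvation differences of the 3 genes were not alike in the 2 sets of Ribo-seq libraries. Eif3a was higher in starved cells in 5 of 6 pairs of the same background and set, with log2 differences from -0.31 to 2.20. All 3 pairs listed from 5 reads were higher, by 1.07 to 2.20 with a mean of 1.53, and those listed from 1 read had a mean of 0.25. The limma difference averaged over 3 backgrounds was 0.89 (SE 0.50, interval -0.19 to 1.96) and did not pass (adjusted p = 0.625). With 1 library left out it ranged from 0.54, without starved control replicate 1, to 1.23, without starved control replicate 2. With reads tested by limma-voom and the set as a block, it was 1.10 (SE 0.31) and passed (adjusted p = 0.0486). In limma, 0.174% of transcripts passed as lower and 0% as higher, and limma-voom with the block called 1.67% higher and 1.08% lower.

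Ogt was higher in starved cells in 3 of 3 pairs listed from 5 reads (1.27 to 2.09) and in 1 of 3 pairs listed from 1 read (-2.25 to 0.84). Oga did likewise, with 3 of 3 pairs higher in the first set (0.10 to 1.82) and 1 of 3 in the second (-3.45 to 0.66). Averaged over backgrounds, the limma differences were 0.35 for Ogt (SE 0.60, adjusted p = 0.897) and -0.03 for Oga (SE 0.53, adjusted p = 0.992). Which property of the libraries goes with the disagreement between the sets was not tested. The sets also differ in depth, at 958140 to 5846130 reads for those listed from 5 reads and 844403 to 3030545 for those listed from 1 read.

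The order of group means in Ribo-seq shows how far replicates overlap. For Ogt, starved Thiamet-G cells were highest at 18.0 ± 1.98 RPKM (SD, n = 2) and did not overlap the next group, starved control at 10.3 ± 6.74. Fed control (9.56 ± 6.39), fed Thiamet-G (6.44 ± 5.56), starved knockout (5.44 ± 6.63) and fed knockout (5.32 ± 3.15) followed, each overlapping its neighbour. For Oga the order was starved control (93.7 ± 65.3 RPKM), starved Thiamet-G (74.5 ± 3.59), fed Thiamet-G (52.6 ± 10.9), fed control (46.4 ± 16.8), fed knockout (35.1 ± 39.1) and starved knockout (10.9 ± 8.69). Among these Oga neighbours, only starved and fed Thiamet-G did not overlap. The share of all transcripts whose neighbouring groups separate in this way was not counted. Neither separation, of 2 libraries from 2, is therefore read as a difference.

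For Eif3a the order was starved control (168 ± 147 RPKM), starved knockout (153 ± 110), starved Thiamet-G (95.9 ± 89.3), fed knockout (85.3 ± 30.3), fed control (63.9 ± 16.9) and fed Thiamet-G (35.6 ± 24.4). The starved groups thus came before the fed groups, but every neighbouring pair overlapped. Between genes, Oga was above Ogt in 12 of 12 Ribo-seq libraries. Eif3a was above Oga in 9 of 12, and the 3 exceptions were Thiamet-G libraries.

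On eIF3-bound 80S ribosomes Eif3a was the highest of the 3 genes in 8 of 8 libraries. Its level was 336 and 535 RPKM in fed and 252 and 711 RPKM in starved control cells. It was 556 RPKM in fed and 372 RPKM in starved knockout cells, and 503 RPKM in fed and 438 RPKM in starved Thiamet-G cells. These values rest on 53 to 729 reads. All but 1 lay above the highest Ribo-seq value of 272 RPKM, the exception being starved control replicate 1 at 252 RPKM.

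Averaged over the 6 conditions, Eif3a was 5.46-fold higher in eIF3-80S-seq than in Ribo-seq (log2 difference 2.45, SE 0.44, limma adjusted p = 0.000599). Of 10542 transcripts, 3.17% passed as higher and 52.6% as lower, with unlisted transcripts taken as 0 in the shallower assay. Among the 1675 transcripts listed in all 20 libraries, 21.3% passed as higher and 20.2% as lower. Eif3a ranked 35 from the top of these, with 97.9% of them lower. In control cells alone the difference was 2.48 fed (SE 0.93, limma adjusted p = 0.0733, 0.427% called higher and 24% lower) and 1.62 starved (SE 0.93, limma adjusted p = 0.194, 0.37% called higher and 30% lower), and neither passed. RPKM is relative to each library, so the comparison is one of shares. The gel cuts also differed, at 25 to 35 nt for Ribo-seq and 20 to 70 nt for eIF3-80S-seq. Binding of eIF3 and library preparation can therefore not be told apart in this comparison.

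**Figure D4:**
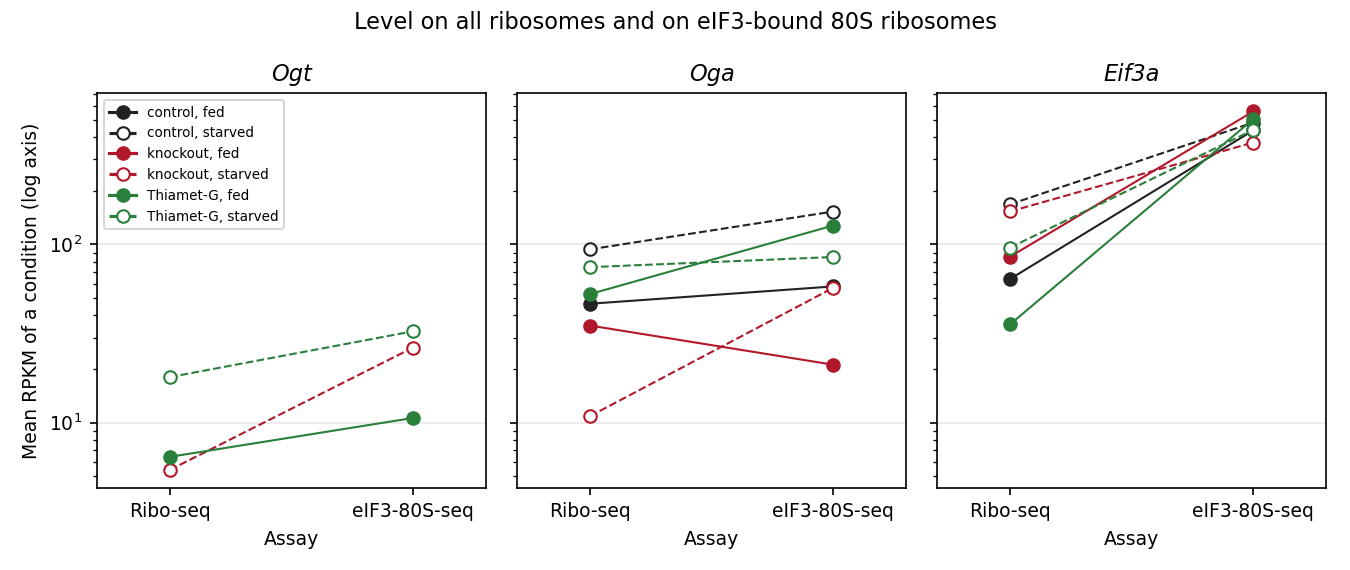
Mean RPKM (log axis) of each condition in Ribo-seq and in eIF3-80S-seq for Ogt, Oga and Eif3a, joined by a line; filled points and solid lines are fed, open points and dashed lines starved, and colours are backgrounds. Means are of 2 libraries, or of 1 in eIF3-80S-seq for knockout and Thiamet-G; conditions in which a library did not list Ogt are left out. All 6 Eif3a lines go up, from 35.6 to 168 RPKM in Ribo-seq to 372 to 556 RPKM in eIF3-80S-seq.

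Oga had lower levels than Eif3a on eIF3-bound ribosomes, at 48.8 and 67.3 RPKM in fed and 125 and 180.0 RPKM in starved control cells. It was at 21.2 RPKM in fed and 57.0 RPKM in starved knockout cells, and at 127 RPKM in fed and 84.9 RPKM in starved Thiamet-G cells. The fed knockout value, the lowest of the 8, rests on 9 reads (interval 9.68 to 40.2 RPKM). In the control, both starved libraries lay above both fed ones. The assay difference for Oga, averaged over conditions, was 0.77 (SE 0.46) and did not pass (limma adjusted p = 0.165). Without fed knockout replicate 2 of Ribo-seq it was 1.02 (limma adjusted p = 0.0399). With quantile normalization it was 1.42 (limma adjusted p = 0.034), and 9.24% of transcripts were then called higher and 31.5% lower.

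In the fit of background and state within eIF3-80S-seq, Oga was lower in the knockout by a log2 difference of -1.46 (SE 0.58, interval -2.84 to -0.07), which did not pass after adjustment (limma adjusted p = 0.873). Each knockout library lay below both control libraries of its state. None of 7734 transcripts passed in this contrast (0% in either direction, 3.09% at an unadjusted p under 0.05). For Eif3a the knockout difference was 0.03 (SE 0.41) and the Thiamet-G difference 0.20 (SE 0.41), with limma adjusted p-values of 1 and 0.909. Starvation gave 0.81 for Oga (SE 0.47, limma adjusted p = 0.676) and -0.28 for Eif3a (SE 0.34, limma adjusted p = 0.746). In this assay 0.284% of transcripts passed as lower with starvation and 0% as higher, and 8.38% had an unadjusted p under 0.05. For Thiamet-G 0% passed in either direction and 2.29% had such a p. The median difference over all transcripts in these fits was far from 0. It was -0.75 for starvation, 0.97 for the knockout and 0.92 for Thiamet-G, with unlisted transcripts taken as 0. The member differences and the calls are to be read beside these medians, whose cause was not tested.

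The starvation difference of Eif3a had opposite signs in the assays, 0.89 in Ribo-seq and -0.28 in eIF3-80S-seq. The test of that difference gave -1.04 (SE 0.88, limma adjusted p = 0.866), so it did not exceed the spread. In that test 0.0379% of transcripts passed as higher and 0.579% as lower. For Oga the same test gave 0.86 (SE 0.91, limma adjusted p = 0.920).

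Ogt was near the limit of detection on eIF3-bound ribosomes and was listed in 5 of 8 libraries. It was at 39.8 RPKM (25 reads) in fed control replicate 2, 56.7 RPKM (23 reads) in starved control replicate 2 and 26.3 RPKM (19 reads) in starved knockout cells. It was at 10.6 RPKM (12 reads) in fed and 32.5 RPKM (14 reads) in starved Thiamet-G cells. It was not listed in fed control replicate 1, starved control replicate 1 and fed knockout cells, where 5 reads would be 10.7, 30.5 and 10.3 RPKM. Since 1 library of each control group did not list it, no difference in Ogt between groups of this assay was detectable at this depth. Its fitted differences have standard errors of 1.92 for starvation and 2.35 for each background.

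Across the 12 Ribo-seq libraries, the log2 levels of Ogt and Oga correlated at Pearson's r = 0.731. Within the 6 libraries listed from 5 reads r was 0.523, and within those listed from 1 read 0.923. The latter set holds starved knockout replicate 2, the lowest Ribo-seq library for both genes, with 2 reads on Ogt and 11 on Oga. The correlations without that library were not computed. Ogt and Eif3a had r = 0.063, with opposite signs in the sets (0.778 and -0.461), and Oga and Eif3a r = -0.058 (0.158 and -0.338). Of 6896 transcripts whose mean was 10 RPKM or more, ENSMUST00000048670 was most like Ogt across these libraries (r = 0.8833), ENSMUST00000034132 most like Oga (r = 0.865) and ENSMUST00000188482 most like Eif3a (r = 0.967). The next transcript was at 0.8831 for Ogt, hardly different, at 0.843 for Oga and at 0.9455 for Eif3a. Each named r is the highest of 6896. These correlations describe libraries that share groups and sets, and they are given without a test.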

How the data were processed

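The authors deposited 1 table of RPKM per library, with a transcript identifier in each row. Per the submitters' processing notes, cutadapt, STAR and the build GRCm38 were used. For the counter, annotation release and filters, nothing was given in the sources used here. Whole reads, coding lengths and library totals were recovered from the RPKM steps, for 96.45% or more of each library's values.

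Each library was divided by its median ratio to the geometric mean of transcripts that all libraries of the fit listed, and unlisted transcripts were set to 0. Those with a mean of 1 RPKM or more entered limma 3.58.1 in R 4.3.3 (lmFit, eBayes with trend) on log2(RPKM + 1), with Benjamini-Hochberg adjusted p under 0.05. One fit held the 6 Ribo-seq groups, 1 additive fit of background and state the eIF3-80S libraries, and 1 fit all 12 groups. Levels printed are as deposited, not rescaled. The code was tested on simulated data, with 50 transcripts changed by each fold. At 2-fold, 0 were recovered in the averaged knockout contrast of Ribo-seq, and at 4-fold 32. In the starvation contrast of eIF3-80S-seq, 1 was recovered at 2-fold, 7 at 8-fold and 20 at 16-fold. In the averaged assay contrast 0 were recovered at 2-fold and 23 at 4-fold. A difference that did not pass may therefore have been missed, most of all in eIF3-80S-seq.

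Groups came from the titles. For starved Thiamet-G Ribo-seq, titles and file names carry opposite replicate numbers, and the titles were used. A Ribo-seq library was put in the set listed from 5 reads where fewer than 1% of its recovered read numbers were below 5. Alternatives were other pseudocounts, filters, scalings, blocks, limma-voom on reads (mean of 10 or more) and each replicate left out.

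The named genes are the 3 members and, for each, the transcript with the highest Pearson's r of log2 levels. The members and lists were chosen with earlier results of these data known. Member symbols came with the identifiers chosen. No reference table matched the other identifiers to names (0 matched), so pathway and cell type marker lists were not analysed here.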

Additional observations from a re-analysis of the deposited data

Results flagged for a closer look

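On eIF3-bound ribosomes, the starved over fed ratio of the Oga level was 2.63 in control cells (means of 2 libraries each) and 2.69 in knockout cells (1 library each), but 0.666 in Thiamet-G cells (1 library each). Both starved control libraries lay above both fed ones and the Thiamet-G libraries moved the opposite way. Thiamet-G was at 127 RPKM fed (126 reads, Poisson interval 106 to 152 RPKM). Starved it was at 84.9 RPKM (32 reads, interval 58.1 to 120 RPKM), so these intervals overlap. The fed knockout library had 9 reads on Oga. The difference between the backgrounds was not tested.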

How the results depend on the processing

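Over 60 member results and 1363 alternatives, 1358 kept their side of the threshold, 5 changed it and 0 reversed a called value. The 1 result that passed, Eif3a in eIF3-80S-seq against Ribo-seq, averaged over conditions, kept its call at 2.06 to 3.09 (limma adjusted p from 0.000246 to 0.0335). The Eif3a starvation difference passed with limma-voom and the set as a block (1.10). The Oga assay difference passed with quantile normalization (1.42) and ranged from 0.44 to 1.02 with 1 library left out. The Eif3a assay difference in fed control cells ranged from 2.27 to 2.67 with 1 library left out, and it passed without starved control replicate 1 (2.57) or replicate 2 (2.49) of eIF3-80S-seq. The cause of these changes was not tested. Among uncalled values, 94 alternatives turned the sign, and 29 results kept it throughout, Oga in the averaged knockout contrast among them (-2.85 to -1.35). On pairing, file-name numbers equal the processing set, and title numbers do except in starved Thiamet-G cells. Deviations of 9 of 15 pairs of groups correlated over 0.1 by title number (-0.309 to 0.445) and 14 of 15 by set (0.08 to 0.445). Neither met the rule that every pair does, but by set all correlations were positive. The libraries thus go together by set, and the main fits leave this out. For Eif3a in the averaged knockout contrast, the SE was 0.43 with the set as a block and 0.61 without it. With the title number as a replicate block the Eif3a starvation difference was 0.89 (limma adjusted p = 0.554). That block changed no member's call, and it moved the averaged starvation calls over all transcripts from 19 to 7. The set as a block gave 21 higher and 79 lower, limma-voom alone 6 and 43, and with the set 166 and 107 (Eif3a tested in each). In the assay comparison, quantile normalization called 960 higher and 3275 lower against 334 and 5544. Ogt had no value with a mean of at least 10 RPKM in Ribo-seq or among transcripts listed in every library in the other fits, where depth limits it most.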
